A study of Danio rerio with 4 samples.

Results

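The genes described here are 10 core cardiac transcription factor genes, *nkx2.5*, *nkx2.7*, *gata4*, *gata5*, *gata6*, *hand2*, *tbx20*, *mef2ca*, *mef2cb* and *isl1*, taken by their symbols from a table of 19661 genes. Each symbol matched 1 gene. They were measured by bulk RNA-seq of dissected zebrafish hearts at 48 hours postfertilization (hpf), in a study of Egr3, a zinc finger transcription factor of the endocardial cells that form the cardiac valves. Mutants were homozygous for *bns577* (bns577-/-), an 11-bp deletion in *egr3* present in every cell of the embryo, and controls were their wild-type siblings (bns577+/+). Each genotype had 2 samples, and each sample was a pool of 20 hearts. From each pool, 10 ng of total RNA was made into complementary DNA with the SMART-Seq v4 Ultra Low Input kit. The comparison addressed here is whether the transcript levels of the core cardiac transcription factor genes differed between mutant and wild-type hearts.

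These genes encode DNA binding proteins that bind together at the regulatory regions of heart muscle genes and activate one another. GATA factors, NK2 homeodomain proteins, the basic helix-loop-helix protein Hand2, the T-box protein Tbx20 and the MADS-box Mef2c proteins act in the specification and differentiation of cardiomyocytes, while the LIM homeodomain protein Isl1 marks progenitors that are added to the heart late. Several of them, GATA factors and Tbx20 among them, also act in the endocardium and in the developing valves. Bulk RNA-seq reads all cells of a pool together, so fewer cells of a type and less RNA per cell cannot be told apart.

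The deposited values were counts normalized by the authors and rounded to whole numbers, here called normalized counts, with totals from 9161759 to 9481943 per library. Genotypes were compared with limma, which fits a linear model to each gene and borrows information on the variance across genes. It was run on log2(normalized count + 1) for 17501 genes whose mean was 5 or more, and p-values were adjusted over all of these genes by the Benjamini-Hochberg method. This fold change scale understates the change of genes with low counts. The mutated gene, *egr3* (ENSDARG00000089156, chromosome 8 from 50727220 to 50733508), had 528 and 537 normalized counts in wild-type pools and 873 and 889 in mutant pools, so both mutants were higher. An overview sheet among the study's supplementary files ties the replicate 2 sample of each genotype to a library file named for the other genotype; genotypes follow the sample labels here, and the difference between the replicate 1 libraries alone is given for every member. Differences between replicates 1 and 2 had opposite signs in the 2 genotypes for 88.3% of the genes tested (correlation across genes -0.99; genes are not independent replicates). In all 10 members, the mean of the 2 genotypes' replicate 1 minus replicate 2 differences was between -0.03 and -0.02 on the log2 scale. The 4 values of a gene therefore held close to 3 free numbers, which dividing each library by a factor does not give by itself. The values look as if a difference between replicate numbers had been taken out of them, and no source used here names such a step. A fit without a block counts 2 residual degrees of freedom per gene where the values hold about 1, so the standard errors, p-values and intervals given here are not those of independent pools. In a fit with a block for the replicate number, which counts 1 residual degree of freedom, the standard errors of the members were larger.

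All 10 members were among the genes tested. None had an adjusted p under 0.05 in limma, where they ranged from 0.173 to 0.707, against 1 of the 17501 genes tested (0.00571%). With the replicate block, adjusted p in limma ranged from 0.841 to 0.933 for the members, and no gene was called (0.0% of genes tested). An unadjusted p under 0.05 was found for 2 members without the block, *hand2* and *gata5*, both lower in the mutants. Such a p was found for 21.6% of the genes tested, where 10.8% of the genes tested were higher and 10.8% lower in the mutants. With the block no member had an unadjusted p under 0.05, against 4.9% of genes tested, or 2.36% for lower genes. The 2 mutant values lay below both wild-type values for 4 members, *gata5*, *gata6*, *hand2* and *nkx2.5* (25.8% of genes tested), and above both for 3, *mef2ca*, *mef2cb* and *isl1* (24.7% of genes tested). In *nkx2.7*, *tbx20* and *gata4* the genotypes overlapped.

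**Figure D1:**
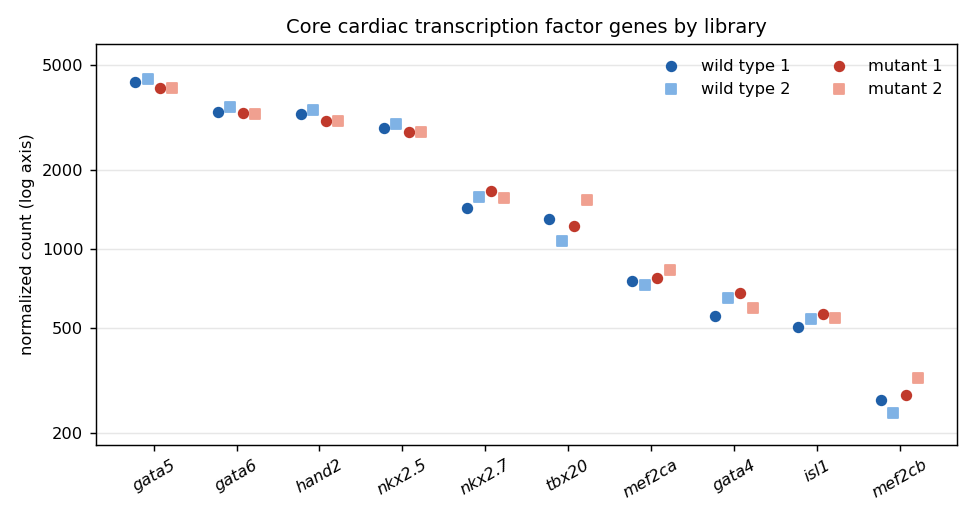
Normalized counts of the 10 genes in each library, on a log axis, with wild-type samples in blue and mutant samples in red, and circles for replicate 1 and squares for replicate 2. The 4 most abundant genes lie between 2770 and 4424 with the mutants slightly below the wild types, and *tbx20* has the widest spread within a genotype, from 1070 to 1300 in the wild types and from 1217 to 1530 in the mutants.

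The order of the members by level was the same in all 4 libraries. From the highest wild-type mean to the lowest it was *gata5*, *gata6*, *hand2*, *nkx2.5*, *nkx2.7*, *tbx20*, *mef2ca*, *gata4*, *isl1* and *mef2cb*. *gata5* stood 92nd and *mef2cb* 7850th among the 19661 genes. The ranges over the 4 libraries overlapped for the neighbors *gata6* and *hand2*, for *nkx2.7* and *tbx20*, and for *gata4* and *isl1*. The levels of these pairs were thus not apart over the libraries, although the first of each pair was the higher within every library. Transcript lengths were not used here, so this is an order of normalized counts and not of transcripts per cell. No value in any library exceeded 11912, and the myocardial marker *myl7*, at 2491 and 2610 in wild-type pools, stood below *gata5*. Where duplicate reads are removed, abundant genes can be understated, and the part of this in the order was not tested.

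*gata5*, *gata6* and *gata4* encode the zinc finger GATA factors of the heart. Zebrafish *gata5* is needed for endoderm and for the formation and migration of myocardial precursors. *gata5* (ENSDARG00000017821) lies on the plus strand of chromosome 23 from 7379728 to 7391028. It had 4295 and 4424 normalized counts in wild-type pools (4360 ± 91.2, SD, n = 2) and 4076 and 4097 in mutant pools (4087 ± 14.8, SD, n = 2). Both mutants were below both wild types, and the 2 mutant samples were closer to each other than the 2 wild types were. The log2 fold change was -0.09 (standard error 0.03, 95% interval -0.17 to -0.02), with an unadjusted p of 0.0259 and an adjusted p of 0.179 (limma, Benjamini-Hochberg).

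*gata6* (ENSDARG00000103589, chromosome 2 from 4207209 to 4217887) had 3322 and 3460 normalized counts in wild-type pools and 3277 and 3257 in mutant pools. The mutants were lower, but the gap between the lowest wild type and the highest mutant was smaller than the gap between the wild types. Its log2 fold change was -0.05 (standard error 0.03, 95% interval -0.14 to 0.04, adjusted p = 0.395, limma). *gata4* (ENSDARG00000098952, chromosome 20 from 52952116 to 52967878), the least abundant of the 3, had 554 and 648 normalized counts in wild-type pools and 676 and 597 in mutant pools. The genotypes overlapped, with mutant replicate 1 the highest and wild-type replicate 1 the lowest. The log2 fold change of *gata4* was 0.08 (standard error 0.12, 95% interval -0.26 to 0.43, adjusted p = 0.707, limma), and it turned to -0.029 without wild-type replicate 1 and to -0.0052 without mutant replicate 1.

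Within each library, *gata5* made up from 50.8% to 52.6% of the summed normalized counts of the 3 GATA genes, *gata6* from 40.6% to 41.0%, and *gata4* from 6.78% to 8.42%. These shares do not depend on a factor that divides a whole library. They do depend on transcript length, on any understating of abundant genes and on any step applied to each gene. The apparent removal of a difference between replicate numbers would be such a step, so shares and ratios do not escape it. The *gata5* to *gata6* log2 ratio was 0.37 and 0.35 in wild-type pools and 0.31 and 0.33 in mutant pools, lower in both mutants by a mean difference of 0.04 on the log2 scale. The *gata5* to *gata4* log2 ratio was 2.95 and 2.77 in wild-type pools and 2.59 and 2.78 in mutant pools, and here the genotypes overlapped.

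*nkx2.5* and *nkx2.7* encode NK2 homeodomain proteins that in zebrafish act together in keeping ventricular cells ventricular and in shaping the heart tube. *nkx2.5* (ENSDARG00000018004, chromosome 14 from 24241241 to 24244034) had 2870 and 2986 normalized counts in wild-type pools and 2783 and 2770 in mutant pools. Both mutants were lower, by less than the difference between the 2 wild types when the nearest samples are compared. Its log2 fold change was -0.08 (standard error 0.03, 95% interval -0.17 to 0.02, adjusted p = 0.282, limma).

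*nkx2.7* (ENSDARG00000021232, chromosome 8 from 50284859 to 50287949) is the one member on the chromosome of *egr3*, 0.439 Mb from it. It had 1422 and 1572 normalized counts in wild-type pools and 1658 and 1553 in mutant pools. Mutant replicate 1 was the highest sample, and mutant replicate 2 lay between the wild types. On the log2 scale the difference was 0.10 (standard error 0.07, 95% interval -0.11 to 0.31, adjusted p = 0.465, limma). Of the 26 genes tested within 1 Mb of *egr3*, 11 had an unadjusted limma p under 0.05, against 21.6% of all genes tested. In 18 of them the genotypes did not overlap, where 24.7% of all genes tested were higher and 25.8% lower in both mutants. None of the 26 was called after adjustment. In that window 21 genes had a larger absolute log2 fold change than *nkx2.7*. The median absolute log2 fold change was 0.34 in the window and 0.19 over all genes tested. Mutants selected by genotype also share the alleles linked to the deletion, and linkage and loss of Egr3 cannot be told apart for *nkx2.7*.

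The *nkx2.7* to *nkx2.5* log2 ratio was -1.01 and -0.93 in wild-type pools and -0.75 and -0.83 in mutant pools. *nkx2.7* thus had 0.495 and 0.526 times the normalized counts of *nkx2.5* in the wild types, and 0.596 and 0.561 times in the mutants. The ratio was higher in both mutants, by a mean of 0.18 on the log2 scale, although the values of *nkx2.7* by itself overlapped between genotypes. How often ratios of other gene pairs lie apart was not counted, here or for the GATA and *mef2c* ratios. Like those of a gene, the values of a ratio held close to 3 free numbers. A ratio that lies apart is thus not a result of independent pools. Of single genes tested, 24.7% were higher and 25.8% lower in both mutants. *nkx2.5* also had a mean above 2000, where 61.2% of genes were lower in both mutants.

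**Figure D2:**
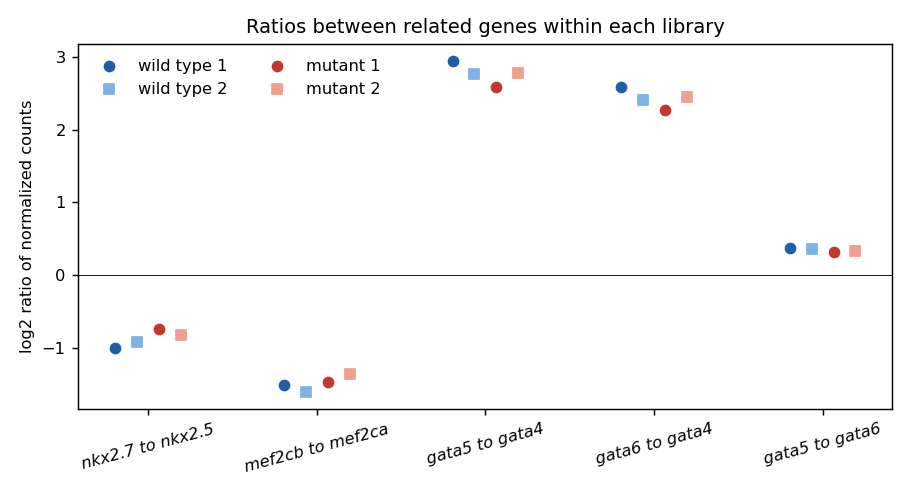
Log2 ratios of normalized counts between related members within each library, with wild types in blue, mutants in red, circles for replicate 1 and squares for replicate 2. The *nkx2.7* to *nkx2.5*, *mef2cb* to *mef2ca* and *gata5* to *gata6* ratios do not overlap between genotypes, and both ratios to *gata4* do. The share of other gene pairs whose ratios lie apart was not counted, and the values of a ratio, like those of a gene, held close to 3 free numbers.

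*hand2* encodes a basic helix-loop-helix protein required for myocardial differentiation and for the fusion of the bilateral heart fields in zebrafish. *hand2* (ENSDARG00000008305, minus strand of chromosome 1 from 38193147 to 38195012) had 3256 and 3367 normalized counts in wild-type pools (3312 ± 78.5, SD, n = 2) and 3067 and 3071 in mutant pools (3069 ± 2.83, SD, n = 2). Both mutants were below both wild types, and the mutant samples were nearly equal. This corresponds to a log2 fold change of -0.11 (standard error 0.03, 95% interval -0.19 to -0.03), an unadjusted p of 0.0231 and the lowest adjusted p among the members, 0.173 (limma, Benjamini-Hochberg). With the replicate block its standard error was 0.05 and its unadjusted limma p 0.0884.

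*tbx20* encodes a T-box factor of both myocardium and endocardium. *tbx20* (ENSDARG00000005150, chromosome 16 from 42509011 to 42523744) had 1300 and 1070 normalized counts in wild-type pools (1185 ± 163, SD, n = 2) and 1217 and 1530 in mutant pools (1374 ± 221, SD, n = 2). Mutant replicate 2 was the highest sample and wild-type replicate 2 the lowest, while the replicate 1 samples had the opposite order. The log2 fold change was 0.21 (standard error 0.17, 95% interval -0.27 to 0.69, adjusted p = 0.509, limma), made up of a difference of -0.10 between the replicate 1 samples and 0.52 between the replicate 2 samples.

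The order of the libraries in *tbx20*, from mutant replicate 2 through wild-type replicate 1 and mutant replicate 1 to wild-type replicate 2, was shared by 9.57% of the genes tested. It was also that of the summed endocardial and endothelial markers (*cdh5*, *kdrl*, *fli1a*, *tie1*, *pecam1* and *nfatc1*), which had 19466 and 17900 normalized counts in wild-type pools and 18323 and 20617 in mutant pools. Taken singly, only *tie1* among these markers had this order. *cdh5* and *pecam1* were lowest in mutant replicate 1, *fli1a* was lower in both mutants, and *kdrl* and *nfatc1* were higher in both. The summed myocardial markers (*myl7*, *tnnt2a*, *myh6*, *myh7* and *nppa*) had 27736 and 29887 in wild-type pools and 28142 and 26966 in mutant pools. This sum was lowest in mutant replicate 2, where *tbx20* was highest, but most of these markers were not. Taken singly, only *myl7* and *nppa* were lowest there, *nppa* narrowly so. *tnnt2a* and *myh7* were lowest in mutant replicate 1, and *myh6* in wild-type replicate 1. The part of the cell makeup of the pools in the values of *tbx20* was not tested.

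*mef2ca* and *mef2cb* are the zebrafish copies of *Mef2c* and act redundantly in cardiomyocyte differentiation, with *mef2ca* also needed in the cranial neural crest. *mef2ca* (ENSDARG00000029764, chromosome 10 from 43544814 to 43655449) had 757 and 730 normalized counts in wild-type pools and 774 and 831 in mutant pools. Both mutants were above both wild types, replicate 1 of the mutants only narrowly so. This gave a log2 fold change of 0.11 (standard error 0.06, 95% interval -0.07 to 0.28, adjusted p = 0.374, limma).

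*mef2cb* (ENSDARG00000009418, chromosome 5 from 48179340 to 48307804), the least abundant member, had 265 and 237 normalized counts in wild-type pools and 278 and 322 in mutant pools. Again both mutants were higher, and mutant replicate 2 stood above the other samples. Its log2 fold change of 0.25 was the largest in size among the members, but its standard error was 0.12 and its 95% interval ran from -0.09 to 0.60 (adjusted p = 0.314, limma). The difference was 0.07 between the replicate 1 samples and 0.44 between the replicate 2 samples.

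Both *mef2c* genes had the same order of libraries, an order shared by 10.8% of the genes tested. The *mef2cb* to *mef2ca* log2 ratio was -1.51 and -1.62 in wild-type pools and -1.47 and -1.37 in mutant pools, higher in both mutants by a mean of 0.15. Among 12690 genes whose mean was 50 or more, the 3 whose centered log2 values were nearest to those of *mef2cb* over the 4 libraries were *asap1a*, *snrnp70* and *csnk1da*, with root mean square differences of 0.00161, 0.00173 and 0.00329. With 4 libraries such likeness was common, and 1380 genes lay within 0.1 of *mef2cb*.

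*isl1* encodes the LIM homeodomain factor of late-added cardiac progenitors and, in zebrafish, of pacemaker cells. *isl1* (ENSDARG00000004023, chromosome 5 from 40728613 to 40734045) had 502 and 539 normalized counts in wild-type pools and 565 and 545 in mutant pools. The mutants were above both wild types, mutant replicate 2 by a small margin. Its log2 fold change was 0.09 (standard error 0.06, 95% interval -0.10 to 0.28, adjusted p = 0.462, limma). The order of the libraries in *isl1* was shared by 9.53% of the genes tested. It was also that of the summed neuron markers (*elavl3*, *elavl4*, *snap25a*, *gap43* and *stmn1b*), with 470 and 525 normalized counts in wild-type pools and 715 and 664 in mutant pools. Of these markers 4 of 5 were higher in both mutants, beside 24.7% of all genes tested. Taken singly, only *elavl4*, which made up most of the sum, and *gap43* had this order. *elavl3* and *snap25a* were highest in mutant replicate 2, and *stmn1b* overlapped between genotypes. Motor and sensory neurons also express *isl1*, and the part of neurons in its values was not tested.

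**Figure D3:**
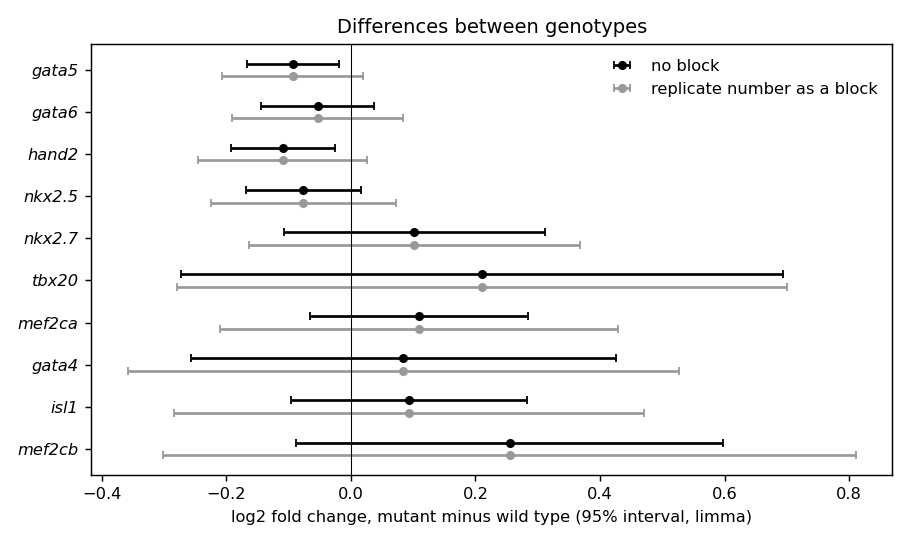
Log2 fold change of each member, mutant minus wild type, with its 95% interval from limma, in black without a block and in gray with the replicate number as a block. Without the block 8 of the 10 intervals include 0, the exceptions being *gata5* and *hand2*, and with the block all 10 include 0.

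Replicate samples of one genotype differed most in *tbx20*, where the higher sample had 1.21 times the lower among the wild types and 1.26 times among the mutants. *gata4* followed with 1.17 and 1.13 times, and *mef2cb* with 1.12 and 1.16 times. In 5 members, *nkx2.7*, *tbx20*, *gata4*, *gata6* and *isl1*, the difference between the samples of at least one genotype exceeded the difference between the genotype means, and in the first 3 of these the average of the differences within both genotypes did so too. At the other end, the mutant samples of *gata5*, *gata6*, *hand2* and *nkx2.5* had coefficients of variation from 0.0922% to 0.433%. If the normalized counts were reads, counting alone would give errors from 1.54% for *gata5* to 6.02% for *mef2cb*. The mutant coefficients of these 4 genes lay below their counting errors of 1.54% to 1.87%, but each comes from only 2 samples. The mutant coefficient of *isl1* also lay below its counting error, at 2.55% against 4.31%. In the wild types *gata5*, *gata6*, *hand2* and *nkx2.5* had coefficients from 2.09% to 2.88%, above their counting errors. The wild-type coefficient of *mef2ca* lay below its own, at 2.57% against 3.60%. Wild-type replicate 1 was above replicate 2 in *tbx20*, *mef2ca* and *mef2cb* and below it in the other 7 members. The sign was opposite in the mutants for 8 of 10 members, the exceptions being *gata5* and *hand2*.

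Between the replicate 1 samples alone, for which no test is possible, the members lower in both mutants differed by less than over all libraries. The log2 difference was then -0.08 for *gata5*, -0.02 for *gata6*, -0.09 for *hand2* and -0.04 for *nkx2.5*. Among the other members it was 0.22 for *nkx2.7*, 0.29 for *gata4*, 0.17 for *isl1*, 0.03 for *mef2ca* and 0.07 for *mef2cb*. Only *tbx20*, at -0.10, had a direction other than that of its mean over all libraries.

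**Figure D4:**
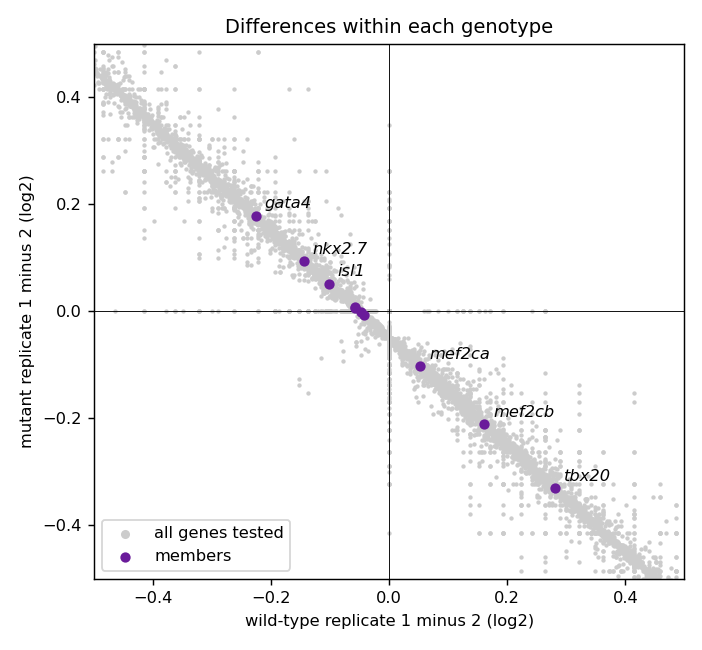
Replicate 1 minus replicate 2 on the log2 scale, in the wild types on the horizontal axis and in the mutants on the vertical axis, for the genes tested (gray) that lie within the plotted range and the 10 members (purple). The members lie on the same falling line as other genes, from *gata4* (-0.23 and 0.18) to *tbx20* (0.28 and -0.33), and the 4 unlabeled points near the center are *gata5*, *gata6*, *hand2* and *nkx2.5*.

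The direction of the members split by level at a mean of 2000. The 4 members whose mean was 2000 or more all had negative log2 fold changes, and the 6 members below it all had positive ones, although *gata4* turned without either replicate 1 library and *tbx20* between the replicate 1 samples. Among the 1007 genes tested whose mean was 2000 or more, a limit set after the values were seen, 61.2% were lower in both mutants and 9.14% higher in both, and their median log2 fold change was -0.07. An unadjusted limma p under 0.05 with a lower level in the mutants was found for 26.6% of these genes and for *gata5* and *hand2* among the 4 members. The 4 members ranged from -0.11 to -0.05, close to that median. Between 1000 and 2000 normalized counts, the median over 2013 genes was -0.03, while *nkx2.7* and *tbx20*, the members in this range, had positive values. From 300 to 1000, which holds *mef2ca*, *gata4* and *isl1*, the median was 0.01 over 4525 genes. From 100 to 300, the range of *mef2cb*, the median over 3424 genes was 0.03. The cause of this trend was not tested.

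**Figure D5:**
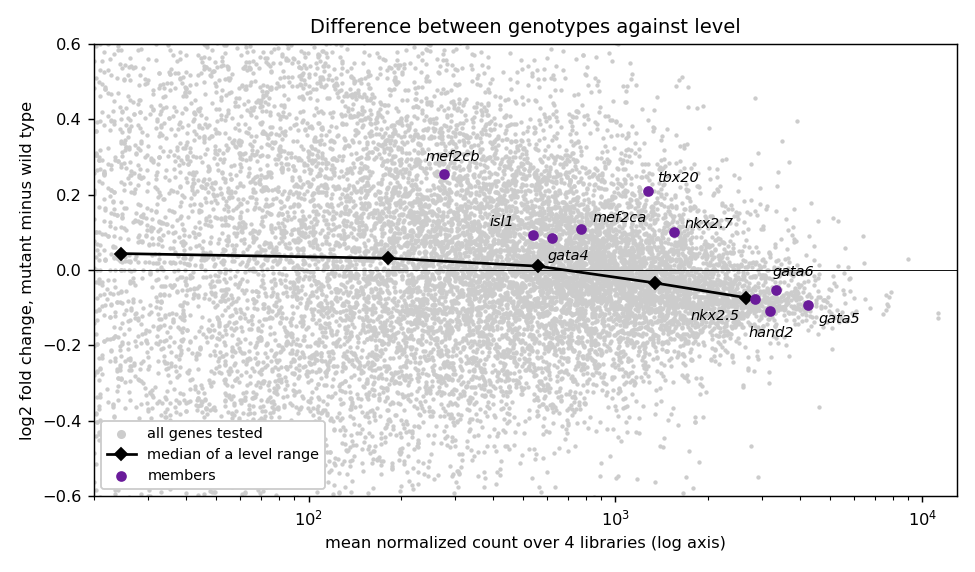
Log2 fold change, mutant minus wild type, against the mean normalized count over the 4 libraries on a log axis, for the genes tested within the plotted range (gray), the members (purple) and the median of 5 level ranges (black diamonds). The medians go from 0.04 in the lowest range to -0.07 in the highest, and *gata5*, *gata6*, *hand2* and *nkx2.5* lie around the last of them.

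The median log2 fold change of the members was 0.09 (range -0.11 to 0.25), against a median of -0.0007 over all genes tested, whose quartiles were -0.17 and 0.22. The median of the members was 0.00053 without wild-type replicate 1, 0.025 without mutant replicate 1 and 0.0062 between the replicate 1 samples alone. In size, the members' log2 fold changes had a median of 0.10, and those of all genes tested a median of 0.19. Gene Ontology entries of the deposited annotation gave heart development to 8 members, to all but *hand2* and *mef2ca*, which have no entry there, and to 225 of the 7963 genes that have one. The members lie on 9 chromosomes, and only *isl1* and *mef2cb* share one.

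Other cardiac transcription factor genes were counted in the same fit. Of 24 listed, 20 were tested, and none had an adjusted p under 0.05, while 2 higher and 4 lower genes had an unadjusted limma p under 0.05. Over all genes tested such a p was found for 10.8% in each direction. In 8 the mutants were below the wild types (25.8% of all genes tested), and in 2 above (24.7% of all genes tested). In 10 the genotypes overlapped, and the median log2 fold change of the list was -0.08. Of the 20, 5 had a mean of 2000 or more, and 3 of these were lower in both mutants, beside 61.2% of all genes at that level. Another 5 of those lower in both had a mean below 2000, where the level ranges held from 20.5% to 35.9% such genes. The 3 genes with the largest differences among those not overlapping were *isl2a*, a LIM homeodomain gene related to *isl1*, *srfb*, a serum response factor gene, and *tbx2a*, which encodes a T-box repressor of the atrioventricular canal. *isl2a* had 220 and 190 normalized counts in wild-type pools and 255 and 305 in mutant pools (difference on the log2 scale 0.45, standard error 0.14, adjusted p = 0.210, limma). *srfb* had 682 and 791 in wild-type pools and 637 and 568 in mutant pools (difference on the log2 scale -0.29, standard error 0.11, adjusted p = 0.260, limma). *tbx2a* had 1168 and 1056 in wild-type pools and 880 and 1007 in mutant pools (difference on the log2 scale -0.24, standard error 0.10, adjusted p = 0.279, limma).

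Of 17 listed genes for cofactors of these proteins, 16 were tested, and their median log2 fold change was -0.02. In both mutants 4 were higher and 4 lower, beside 24.7% higher and 25.8% lower of all genes tested. None was called, and 2 had an unadjusted limma p under 0.05, both higher in the mutants, against 10.8% of all genes tested in each direction. *smarcd3a*, which encodes a subunit of the BAF chromatin remodeling complex, had 52 and 48 normalized counts in wild-type pools and 69 and 77 in mutant pools (difference on the log2 scale 0.54, standard error 0.13, adjusted p = 0.164, limma). *zfpm1*, a Friend of GATA gene, had 1137 and 1585 in wild-type pools and 2221 and 1650 in mutant pools, and the highest wild type was close to the lowest mutant (log2 fold change 0.51, standard error 0.24, adjusted p = 0.323, limma). *ldb1b*, whose product binds LIM homeodomain proteins such as Isl1, had 294 and 306 in wild-type pools and 378 and 375 in mutant pools (difference on the log2 scale 0.33, standard error 0.06, adjusted p = 0.141, limma).

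All 12 tested of 13 listed genes of upstream signals also missed the threshold, with a median log2 fold change of -0.10. In both mutants 4 were lower and 1 higher, beside 25.8% lower and 24.7% higher of all genes tested. An unadjusted limma p under 0.05 was found for 2 of them, both lower in the mutants, against 10.8% of all genes tested in each direction. Among those whose genotypes did not overlap, the largest difference was in *fgf3*, a fibroblast growth factor gene, with 1474 and 1282 normalized counts in wild-type pools and 981 and 1168 in mutant pools (log2 fold change -0.36, standard error 0.13, adjusted p = 0.234, limma). *wnt11*, a noncanonical Wnt ligand gene, had 3509 and 3513 in wild-type pools and 3087 and 3192 in mutant pools (difference on the log2 scale -0.16, adjusted p = 0.138, limma). *bmp4*, a bone morphogenetic protein gene expressed in the atrioventricular canal, had 5190 and 5272 in wild-type pools and 4788 and 4880 in mutant pools (difference on the log2 scale -0.11, adjusted p = 0.142, limma). Both had mutants below both wild types and a mean above 2000, where most genes did.

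Of 21 listed myocardial genes that these factors activate, 20 were found, and *actc1a* had 2 entries, so 21 entries were tested. Both mutants were lower in 16 of these, both entries of *actc1a* among them, and higher in none, against 25.8% and 24.7% of all genes tested. None was called. Of the 21, 14 had a mean of 2000 or more, and 11 of these were lower in both mutants, beside 61.2% of all genes at that level. Another 5 of those lower in both mutants had a mean below 2000. In the level ranges below 2000, from 20.5% to 35.9% of the genes tested were lower in both. The median log2 fold change of the 21 was -0.10, and 7 had an unadjusted p under 0.05 in limma, all of them lower, against 10.8% of all genes tested. At a mean of 2000 or more there were 6 such genes of 14, beside 26.6% of all genes at that level. *ttn.1*, a titin gene, had 3463 and 6100 normalized counts in wild-type pools and 3456 and 2031 in mutant pools, where wild-type replicate 1 and mutant replicate 1 were nearly equal (log2 fold change -0.79, standard error 0.42, adjusted p = 0.361, limma). *fhod3a*, which encodes a sarcomeric formin, had 280 and 330 in wild-type pools and 266 and 234 in mutant pools (difference on the log2 scale -0.28, standard error 0.13, adjusted p = 0.308, limma). *myh7l*, a myosin heavy chain gene, had 11557 and 11904 in wild-type pools and 10704 and 10758 in mutant pools (difference on the log2 scale -0.13, standard error 0.02, adjusted p = 0.134, limma).

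Markers of other tissues were present and differed between pools. The summed skin and hatching gland markers had 3846 and 15494 normalized counts in wild-type pools and 2779 and 525 in mutant pools, and they held *he1.1*, a hatching enzyme gene, the 1 gene called over the whole table. In this list *he1.1*, *he1.2* and both entries of *ctslb* were lower in both mutants, beside 25.8% of all genes tested. The genotypes overlapped in *krt4*, *krt5* and *cldne*, and *krt4* and *krt5* made up most of the sum in wild-type replicate 2. Pharyngeal arch markers had 75 and 524 in wild-type pools and 530 and 149 in mutant pools. Only *barx1* among them was higher in both mutants, beside 24.7% of all genes tested, and *dlx2a*, *dlx5a* and *dlx6a* overlapped between genotypes. The pharyngeal arches are near the heart and also express *hand2*, *mef2ca* and *mef2cb*. Neural crest markers summed to 9 and 5 in wild-type pools and 33 and 52 in mutant pools. Most of this difference was *sox10*, with 2 and 1 in wild-type pools and 27 and 36 in mutant pools. It alone was higher in both mutants, beside 24.7% of all genes tested. *mitfa* overlapped between genotypes, *foxd3* had 2 or 3 in every library and was not tested, and *crestin* was not found. Skeletal muscle markers summed to 4090 and 3951 in wild-type pools and 4257 and 5005 in mutant pools. Of them 4 of 5 were higher in both mutants, beside 24.7% of all genes tested. The other, *ckma*, made up most of the sum and was lower in both mutants, with 3179 and 3306 against 3034 and 3021. Liver and gut markers summed to 224 and 142 in wild-type pools and 209 and 395 in mutant pools. Blood markers summed to 7156 and 6959 against 7300 and 7794, and epicardial markers to 1254 and 976 against 968 and 1283. *tfa*, *alas2* and *aldh1a2* made up most of these sums in turn, and each overlapped between genotypes. *foxa2*, *gata1a*, *hbbe2* and *wt1a* were higher in both mutants, beside 24.7% of all genes tested. *foxa3*, *sox17* and *hbbe1.1* were lower in both, beside 25.8%, and the remaining genes overlapped. The part of these tissues in the values of the members was not tested.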

How the data were processed

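Per the labels and the study's methods, RNA from pools of dissected hearts was amplified and sequenced. Per the submitters' processing notes, the authors used Trimmomatic 0.39, STAR 2.7.10a, Picard 2.27.1, featureCounts 2.0.2 and DESeq2 1.30.1 with the build danRer11, and gene positions are those of the deposited table. The values the authors deposited are treated as scores: counts normalized, per the notes with DESeq2, and rounded to whole numbers. They look as if a difference between replicate numbers had also been taken out, a step that is not given in the sources used here. Since raw counts were not used here, no count model was fitted. Where duplicate reads are removed, abundant genes can be understated. From the table, 4 value columns were read, 1 per sample.

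The values were tested with limma 3.58.1 under R 4.3.3, using lmFit and eBayes with a variance trend, on log2(value + 1), for genes with a mean of at least 5, without a block, at an adjusted p under 0.05 (Benjamini-Hochberg). Intervals are 95% intervals of that fit. Summaries and plots used pandas 2.3.3, numpy 2.4.6 and matplotlib 3.10.9 in Python 3.11.15. The script was tested on simulated data. With 2 samples per genotype no permutation of a single gene can reach a p under 0.05, and none was run. The labels do not say whether the pools came from separate clutches, so p-values measure only the spread between these samples.

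The members and all gene lists were chosen with earlier results of these data known. All members and *egr3* are named, and from each pathway list the genes called and up to 3 genes with the largest absolute log2 fold change among those with a mean of at least 20 and no overlap of genotypes. For the member with the largest absolute log2 fold change, the 3 genes nearest to it were named, and markers were given by list. The level ranges were set after the values were seen. Alternatives were a replicate block, pseudocounts of 0.5 and 5, no filter or a mean of at least 20, no variance trend, rescaled libraries, each library left out, and the replicate 1 libraries alone. No sequences or transcript lengths were used here.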

Additional observations from a re-analysis of the deposited data

How the results depend on the processing

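The log2 fold changes of 9 members kept their direction under the 12 alternative settings that allow a test, the exception being *gata4*, which was -0.029 without wild-type replicate 1 and -0.0052 without mutant replicate 1, in a range up to 0.20 when 1 library was left out. No member was called in these settings, with adjusted p in limma from 0.0931 to 0.99. Between the replicate 1 libraries alone, which allow no test, *tbx20* was also in the other direction, at -0.10. The median log2 fold change of the members, 0.09, ranged from 0.00053 to 0.077 when 1 library was left out, and was 0.0062 between the replicate 1 libraries alone. The number of genes called over the whole table, 1, was 0 without a filter, 3 with a mean of at least 20 and 28 without the variance trend, and from 0 to 0 when 1 library was left out, where the lone sample is assumed to vary like the other genotype. The causes of these moves were not tested.

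With the replicate number as a block, 0 genes were called, and 858 against 3772 had an unadjusted p under 0.05 in limma. Replicate numbers come only from the sample names, and the study's methods name no block. Samples with the same number deviated in opposite directions (correlation -0.99 across genes), but with the difference between replicate numbers nearly constant in the values this correlation is fixed, and it cannot show whether the numbers pair the samples. With the crossed pairing as a block, added after the values were seen, 12169 genes and 6 of the 10 members were called, a count fixed by construction, since the residual left is the nearly constant difference between replicate numbers, and it says nothing about the genotypes.

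Rescaling the libraries moved the median of all genes by at most 0.02 on the log2 scale. The order and the ratios per kb were not run, since no transcript lengths were at hand. The order with the mean over 4 libraries, the ratios with a pseudocount of 0.5 and the counts of the lists with a mean of at least 20 were as given above. With 2 pools per genotype, no difference of a member between genotypes passed the adjusted threshold in the fit reported or in the 12 alternative settings above, the crossed pairing being apart.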
